A study of Homo sapiens with 6 samples.

Results

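The genes described here are 10 components of TGF-beta and activin signalling in A-375, a long-established line of human melanoma cells: the ligand genes TGFB1, TGFB2 and INHBA, the activin antagonist FST, the receptor genes TGFBR1 and TGFBR2, the signal transducer SMAD3, the feedback regulators SMAD7 and SKIL, and the secreted target TGFBI. They were taken by symbol from the table of raw read counts, which held 21631 genes, and all 10 passed the filter on low counts, as did 16910 genes in all. The table covers 6 RNA sequencing libraries of A-375 cells with no further treatment named, 3 labelled sgCTRL (a control guide) and 3 labelled sgSEPHS2 (a guide against SEPHS2, which the series design calls knockout cells). The labels do not name clones or say whether the 3 libraries of a group came from separate cultures, so p-values measure the spread between these libraries only, which may be technical. A difference between the cells that founded each group and an effect of the guide cannot be told apart.

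TGF-beta is secreted in a latent form, held by latent TGF-beta binding proteins and released by integrins or proteases. The free ligand joins a type II receptor (TGFBR2) to a type I receptor (TGFBR1), which phosphorylates SMAD2 and SMAD3. These bind SMAD4 and enter the nucleus to regulate target genes. Activin, a dimer of the INHBA product, uses other receptors but the same SMAD2 and SMAD3, and follistatin (FST) traps it outside the cell. SMAD7 and SKIL are themselves induced by the pathway and restrain it. In melanoma the pathway is known for its effects on matrix production, invasion and the loss of melanocytic features.

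As a check of the labels, SEPHS2 itself was at 156 ± 3.32 CPM (reads scaled to a TMM-adjusted library total; SD, n = 3) in control libraries and 173 ± 3.85 CPM in those labelled sgSEPHS2. SEPHS2 was thus not lower there but called higher, by 0.15 in log2 (edgeR, adjusted p = 0.004), and it stayed called under all 14 alternatives run. Counts per gene cannot reveal a shifted reading frame, and every direction here rests on the labels. Totals were between 34606145 and 43405579 reads. Of 7 melanocytic markers 4 were at 1 CPM or above, led by SOX10 at 619 and 569 CPM in the control and sgSEPHS2 groups. The pigment gene TYR had no read in any control library and 6, 0 and 4 reads in the sgSEPHS2 libraries. SOX10 and MITF, regulators of the melanocyte lineage, were both called lower in the sgSEPHS2 group, MITF by a log2 change of -0.35 and SOX10 by one of -0.12. The other markers of that list did not follow. S100B (-0.03 in log2), PMEL (0.003) and MLANA (0.14) were not called, and TYR and DCT did not pass the filter on low counts. The summed level of 5 fibroblast markers was 19.8 to 23.1 CPM in control libraries and 19.9 to 23.7 CPM in the others. That of 4 endothelial markers was 8.69 to 9.52 and 7.82 to 8.73 CPM. The leukocyte markers in the table summed to at most 0.701 CPM and the epithelial ones to at most 2.55 CPM. Of the markers of other cell types, LUM and KRT14 were called higher and COL1A1 and COL1A2 lower, and the part of such markers in the results was not tested.

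Stretches before the start of 7 genes are shown as examples of where SMAD and AP-1 letters do and do not occur. They were cut at different distances from the start and do not compare genes that rose with genes that fell. Sequences are from RefSeq on GRCh38.p14, 5′ to 3′ on the strand of the gene, and all lie before an annotated start, which for INHBA is inside the span of the gene. The 4 strings below were searched on both strands in windows from 250 bases before to 50 bases after each start, and matches are in capitals: GTCTAGAC (the SMAD palindrome), CAGACA (the CAGA box), CAGAC (the shorter SMAD core, which every CAGACA contains) and TGANTCA (the AP-1 site). SMAD7 and SMAD6 encode inhibitory SMADs, and both were higher. TGFBI and INHBA were the members that fell most, and the stretch shown for INHBA ends before the CAGA box of its window. SMAD3, also called lower, has a CAGA box at base -134 of an annotated start and is not shown. FST, TGFB2 and SKIL show an AP-1, a CAGA and a core match in turn.
SMAD7, chr18:48951075-48951195, minus strand, bases -230 to -110: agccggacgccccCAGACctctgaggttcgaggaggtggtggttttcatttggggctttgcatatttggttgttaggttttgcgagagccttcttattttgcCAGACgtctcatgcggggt
SMAD6, chr15:66702116-66702235, plus strand, bases -120 to -1: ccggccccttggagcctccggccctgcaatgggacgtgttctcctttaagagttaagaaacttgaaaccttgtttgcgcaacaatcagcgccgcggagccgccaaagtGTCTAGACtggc
TGFBI, chr5:136028868-136028987, plus strand, bases -120 to -1: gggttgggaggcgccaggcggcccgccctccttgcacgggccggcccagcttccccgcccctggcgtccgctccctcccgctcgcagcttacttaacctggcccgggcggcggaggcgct
INHBA, chr7:41703091-41703210, minus strand, bases -120 to -1: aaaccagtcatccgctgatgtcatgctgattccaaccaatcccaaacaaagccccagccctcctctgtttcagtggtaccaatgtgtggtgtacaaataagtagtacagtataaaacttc
FST, chr5:53480449-53480548, plus strand, bases -180 to -81: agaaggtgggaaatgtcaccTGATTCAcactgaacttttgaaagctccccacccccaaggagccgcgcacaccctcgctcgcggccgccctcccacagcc
TGFB2, chr1:218345216-218345335, plus strand, bases -120 to -1: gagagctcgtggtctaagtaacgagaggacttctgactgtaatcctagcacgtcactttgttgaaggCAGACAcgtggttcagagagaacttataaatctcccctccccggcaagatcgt
SKIL, chr3:170357565-170357664, plus strand, bases -150 to -51: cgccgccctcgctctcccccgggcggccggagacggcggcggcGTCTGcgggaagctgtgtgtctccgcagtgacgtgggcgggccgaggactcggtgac

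All 10 members matched the promoter table, with 24 windows in all, since 4 of them have several annotated starts. The CAGA box was in 5 of these 24 windows (20.8%), against 16.9% of all 35116 windows. The shorter core was in 12, against 45.3%, and the AP-1 site in 3 (12.5%), against 7.71%. Windows of a gene are not separate members, and TGFBR1 has 8 of the 24 and SMAD3 5. By gene, the CAGA box was in 4 of the 10 members, the shorter core in 6 and the AP-1 site in 3. None of the 24 held the SMAD palindrome, which 0.202% of all windows hold and which the SMAD6 window carries from base -12. The TGFBI window held none of the 4 strings, and in the INHBA window the CAGA box lay after the start, at base 28. These matches are a description of letters, and shares close to those of all windows say nothing particular about the members.

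In the libraries labelled sgSEPHS2, 7 of the 10 members fell, 1 rose and 2 were not called by edgeR at an adjusted p under 0.05. Those that fell were INHBA, FST, TGFB1, TGFBR2, SMAD3, SKIL and TGFBI, and the one that rose was SMAD7. Among all tested genes 23.4% were called lower and 22.0% higher, 45.4% in all. Among 9956 genes averaging 10 CPM or above, the class of every member except TGFB2, 24.8% were called lower and 30.2% higher, 55.0% in all. The median log2 fold change of the 10 was -0.22, against 0.01 over all tested genes. The groups did not overlap for 8 members on the lower side and 1 on the higher side, where 25.6% and 26.5% of all tested genes were so separated, 52.1% in all. In the better expressed class 27.5% and 34.1% were, 61.6% in all. The 10 genes were chosen with earlier results of these data known, so these shares are a description and not a test. Most of the falls were modest, and only TGFBI changed by more than 2-fold. Libraries of a group agreed closely, with a coefficient of variation of at most 12.3% for every member in both groups, except 36.3% for TGFB2 in sgSEPHS2 libraries. The steadiest was TGFBR2 in control libraries, at 0.571%.

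**Figure D1:**
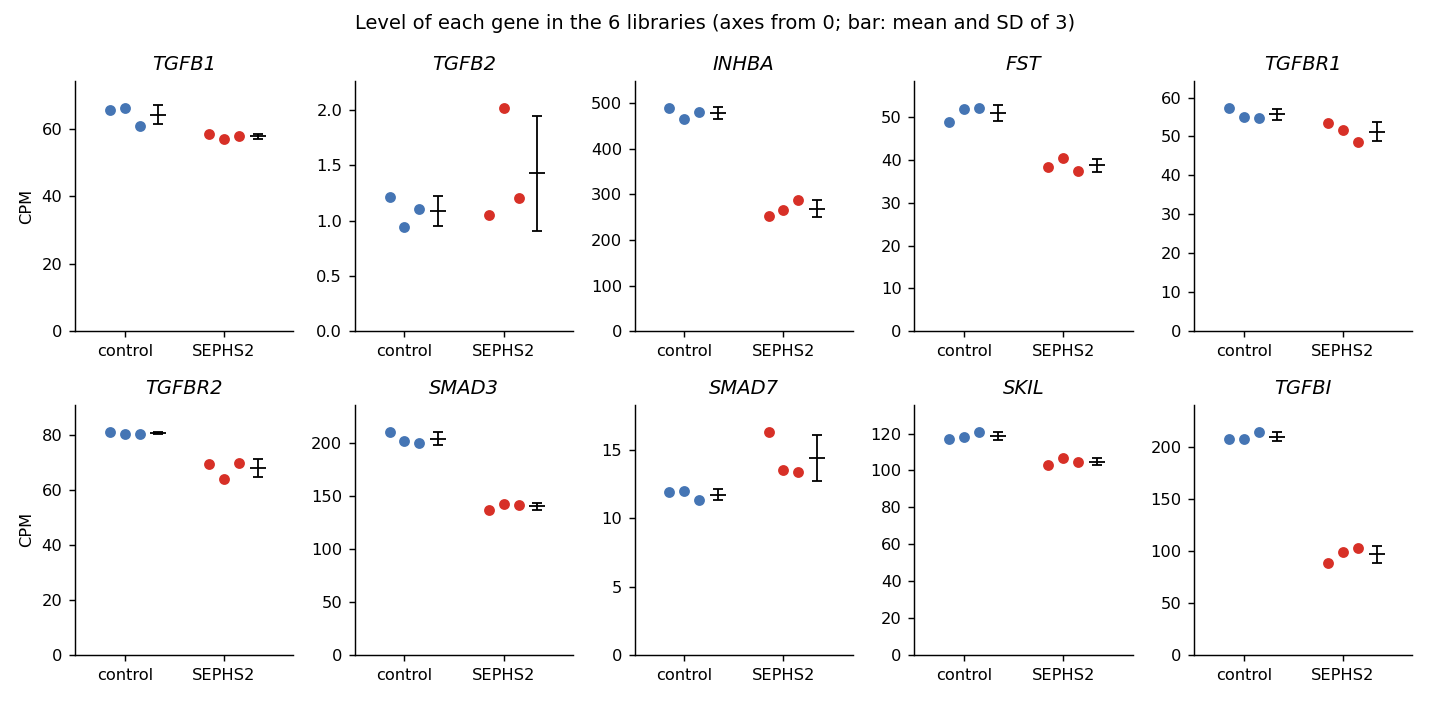
CPM (TMM-scaled) of each of the 10 genes in the 3 control libraries (blue) and the 3 libraries with the SEPHS2 guide (red), with the mean and SD of each group in black and every axis starting at 0. The groups are apart for every gene except TGFB2, with INHBA going from 478 to 268 CPM, TGFBI from 210 to 96.8 CPM and SMAD7 higher in all 3 sgSEPHS2 libraries.

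Per length of exon, the order of the 10 in control cells was led by INHBA at 57.6 ± 1.55 CPM per kb (SD, n = 3), followed by TGFBI at 26.9 ± 0.546 and SMAD3 at 22.3 ± 0.646. TGFB1 followed at 19.8 ± 0.903 CPM per kb. FST at 17.2 ± 0.613 and TGFBR2 at 17.2 ± 0.098 CPM per kb did not differ beyond their spread, and SKIL stood at 15.3 ± 0.278. TGFBR1 was at 8.14 ± 0.206 CPM per kb, SMAD7 at 2.33 ± 0.0748 and TGFB2 at 0.211 ± 0.0259. In the sgSEPHS2 group INHBA was still first at 32.3 ± 2.21 CPM per kb, but TGFBI, at 12.4 ± 1, was below TGFB1 at 17.8 ± 0.231, SMAD3 at 15.4 ± 0.334 and TGFBR2 at 14.4 ± 0.703. The levels of TGFBI and FST (13.03 ± 0.504 CPM per kb) did not differ beyond their spread there, nor did those of FST and SKIL (13.5 ± 0.237 CPM per kb). Exon lengths were taken from GENCODE 29, which may not be the annotation used for counting.

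**Figure D2:**
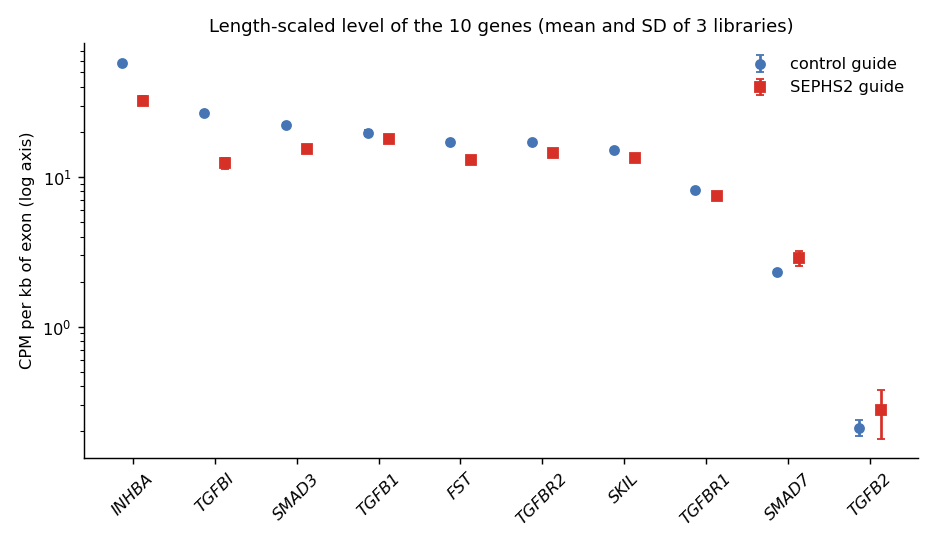
Length-scaled level (CPM per kb of exon, log axis) of the 10 genes in the control group (blue circles) and the sgSEPHS2 group (red squares), as mean and SD of 3 libraries, in the order of the control group. INHBA is highest in both groups, at 57.6 and 32.3 CPM per kb, and TGFB2 lowest, at 0.211 and 0.277 CPM per kb.

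Of the ligand genes, INHBA (chromosome 7, 41685114 to 41705406, GRCh38.p14, protein-coding), which encodes the activin A subunit, showed the largest fall. It had 489, 464 and 480 CPM in the control libraries and 251, 266 and 288 CPM in the sgSEPHS2 libraries. All 3 sgSEPHS2 libraries lay far below all 3 controls. On the log2 scale the change was -0.83 with an SE of 0.05 (edgeR, adjusted p = 6.96e-12), and 1.72% of the genes at 10 CPM or above fell as much or more. Its antisense gene INHBA-AS1 was at 2.42 and 1.77 CPM, and without a known strand setting its reads cannot be told from those of INHBA where they overlap.

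TGFB1 (chromosome 19, 41330323 to 41353922), the main TGF-beta ligand gene of these cells, differed far less. Its 3 control libraries had 65.6, 66.2 and 60.9 CPM and its 3 sgSEPHS2 libraries 58.4, 56.9 and 57.9 CPM. The groups did not overlap, although control replicate 3 stood close to the other group. With a log2 fold change of -0.15 and an SE of 0.05, it was called by edgeR (adjusted p = 0.011), but no longer when control replicate 1 was left out (adjusted p = 0.0513) or when replicate 2 was (adjusted p = 0.0626). The opposite-strand genes HNRNPUL1, CCDC97 and TMEM91 overlap TGFB1 in GENCODE 29, and none of the 3 was called (HNRNPUL1 at 318 and 334 CPM).

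TGFB2 (chromosome 1, 218345336 to 218444619), an isoform that binds its receptors poorly without the co-receptor betaglycan, was close to the lower end of what these libraries measure. The control libraries held 51, 39 and 44 reads and the sgSEPHS2 libraries 36, 87 and 49. Replicate 2 of the sgSEPHS2 group was the highest, at 2.02 CPM, while replicates 1 and 3, at 1.054 and 1.209 CPM, lay within the range of the controls, so the groups overlapped. The log2 fold change was 0.41, with a 95% interval of -0.14 to 0.95 (edgeR adjusted p = 0.222), and it was 0.06 without that library. TGFB3, named after its values were seen, was not called either, at 5.59 ± 0.887 and 4.81 ± 0.883 CPM. Scaled for length, TGFB1 made up 91.8% to 94.8% of the summed reads of the 3 TGF-beta ligand genes in every library.

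Follistatin, the product of FST (chromosome 5, 53480629 to 53487134), binds activin and keeps it from its receptors. FST was at 48.9, 52 and 52.1 CPM in control libraries and at 38.3, 40.4 and 37.4 CPM in sgSEPHS2 libraries. The groups stood well apart, a difference of -0.40 in log2 with an SE of 0.05 (edgeR, adjusted p = 1.78e-06). The genes within 5 Mb of FST had a median log2 fold change of 0.16, on the opposite side of zero from FST. For the other members the median of such neighbours was between -0.06 and 0.06.

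INHBA and FST thus both fell, INHBA more. FSTL3, another gene listed with the ligands, latency proteins and antagonists, was named after its values were seen. It was not called, at 36.5 and 36.6 CPM. Within a library, which needs no scaling between libraries, the reads of INHBA were 10.01, 8.93 and 9.21 times those of FST in controls and 6.56, 6.605 and 7.69 times in sgSEPHS2 libraries. The ratio was lower in all 3 sgSEPHS2 libraries than in any control and changed 0.74-fold. An exact two-sided permutation test gave p = 0.1, the smallest p that 3 against 3 libraries allow. The ratio of TGFB2 to TGFB1 reads overlapped between the groups (exact permutation p = 0.3), as did that of TGFBR1 to TGFBR2 reads (exact permutation p = 0.2). Adjusted values over these 3 ratios could not fall below the threshold in this design.

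**Figure D3:**
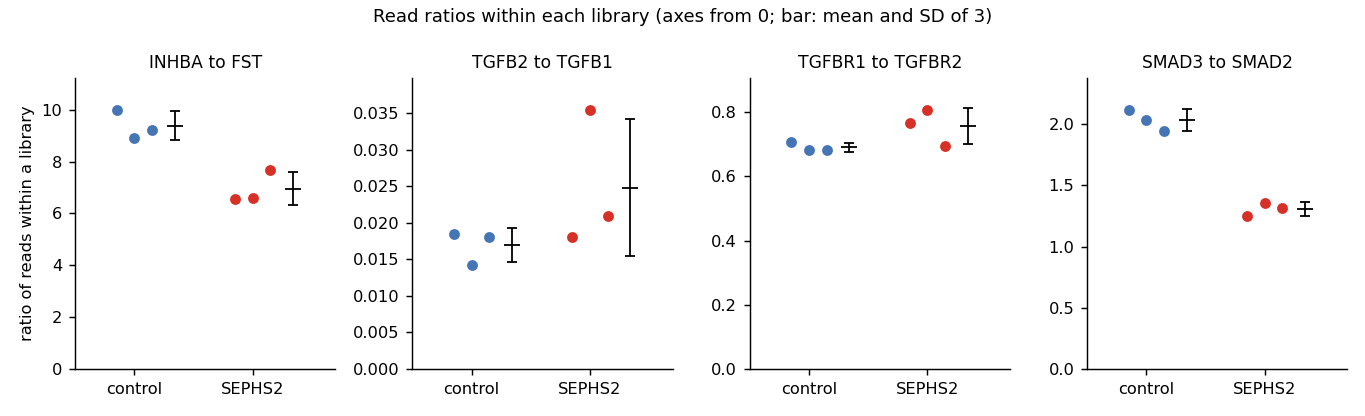
Ratio of the reads of paired genes within each library (axes from 0), with control libraries in blue, sgSEPHS2 libraries in red, and the mean and SD of each group in black. The groups are apart for INHBA to FST and for SMAD3 to SMAD2, and overlap for TGFB2 to TGFB1 and TGFBR1 to TGFBR2.

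TGFBR2 (chromosome 3, 30606356 to 30694142), the type II receptor that binds the ligand first, fell. It had 81.2, 80.5 and 80.4 CPM in controls and 69.6, 64.0 and 70.0 CPM in sgSEPHS2 libraries, with no overlap and a control spread under 1 CPM. This was a difference of -0.25 in log2 with an SE of 0.05 (edgeR, adjusted p = 1.36e-04). TGFBR1 (chromosome 9, 99103647 to 99154192), the type I receptor kinase, had 57.4, 55.0 and 54.8 CPM in controls and 53.4, 51.8 and 48.6 CPM in sgSEPHS2 libraries. All 3 sgSEPHS2 values lay below the controls, but by little. The difference, -0.12 in log2 with a 95% interval of -0.22 to -0.02 before adjustment, missed the threshold (edgeR adjusted p = 0.0515). TGFBR1 was called lower under 6 of the 14 alternatives run.

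SMAD3 (chromosome 15, 67065602 to 67195169), which carries the signal to the nucleus and binds DNA, fell the most among the members that act inside the cell (SMAD3, SMAD7 and SKIL). It was at 210.4, 201 and 199.5 CPM in controls and at 136, 142 and 141 CPM in sgSEPHS2 libraries. Within each group the libraries differed by a small part of the gap between groups, and the change in log2 was -0.54 with an SE of 0.04 (edgeR, adjusted p = 8.15e-10). The partner SMADs, named after their values were seen, were not called. SMAD2 was at 100.1 ± 2.05 and 107 ± 2.43 CPM (0.10 in log2, edgeR adjusted p = 0.0604, and 0.0487 without sgSEPHS2 replicate 2), and SMAD4 at 69.0 ± 1.4 and 69.6 ± 2.14 CPM. SMAD3 reads were 2.12, 2.04 and 1.95 times those of SMAD2 in controls and 1.25, 1.36 and 1.31 times in sgSEPHS2 libraries, a ratio also chosen after the values were seen and given with no test.

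SMAD7 (chromosome 18, 48919853 to 48950965), the inhibitory SMAD that brings ubiquitin ligases to the receptor, rose. It had 11.9, 12.0 and 11.3 CPM in controls and 16.3, 13.5 and 13.3 CPM in sgSEPHS2 libraries. The groups did not overlap, and replicate 1 of the sgSEPHS2 group was the highest by nearly 3 CPM. It rose by 0.29 in log2 with an SE of 0.09 (edgeR, adjusted p = 0.00866), and without that replicate it was 0.19 and no longer called (adjusted p = 0.0705). That library was also the lowest of its group for INHBA, TGFBI and SMAD3, and the shallowest of the 6. Among genes described below that rose, it was the highest of its group for SMAD6, TGFBR3, NEDD4L, THBS1 and CCN2 and the lowest for TGIF1. These all stayed called without it, with the log2 fold change going from 0.36 to 0.26 for THBS1 and from 0.87 to 0.76 for CCN2. The genes within 5 Mb of SMAD7 had a median log2 fold change of 0.02.

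SKIL (chromosome 3, 170357715 to 170396849) encodes SnoN, a co-repressor that binds SMAD complexes on DNA. It was at 117, 118 and 121 CPM in controls and at 103, 107 and 105 CPM in sgSEPHS2 libraries. The groups were close but did not overlap, and the change in log2 was -0.18 with an SE of 0.04 (edgeR, adjusted p = 0.00121). SMAD7 and SKIL, both feedback genes of the pathway, were thus called in opposite directions, although SMAD7 was not called without sgSEPHS2 replicate 1.

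TGFBI (chromosome 5, 136028988 to 136063818) encodes a secreted matrix protein named for its induction by TGF-beta, and it changed most. Control libraries had 207.9, 207.8 and 215 CPM and sgSEPHS2 libraries 88.1, 99.0 and 103 CPM. The groups were far apart, and the fall was 2.17-fold. In log2 it was -1.12 with an SE of 0.05 (edgeR, adjusted p = 1.78e-13), and 0.713% of the genes at 10 CPM or above fell as much or more.

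**Figure D4:**
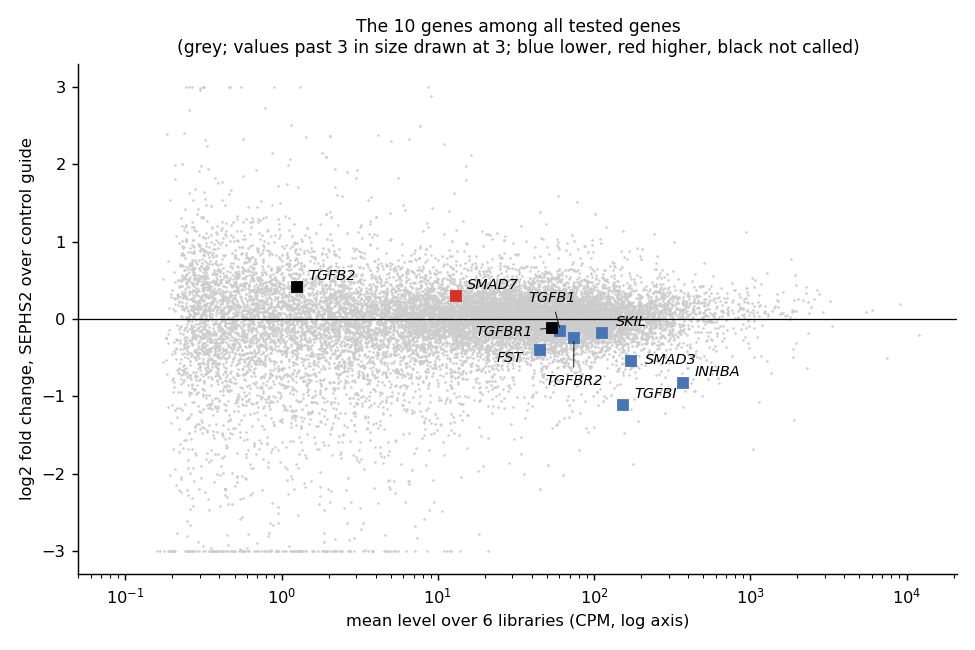
Log2 fold change (sgSEPHS2 over control) against the mean level over 6 libraries (CPM, log axis) for all tested genes in grey, with the 10 genes as squares, blue for lower, red for higher and black for not called, and values beyond 3 drawn at 3. Of the genes at 10 CPM or above, 0.713% fell as much as TGFBI (-1.12) or more, and 1.72% as much as INHBA (-0.83) or more. TGFB1, TGFBR1 and SKIL lie inside the main body.

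The other genes of the pathway were read from lists by role, which share some genes and were chosen with earlier results of these data known. Of 17 tested ligands, latency proteins and antagonists beside the members, 8 fell, 1 rose and 8 were not called, so that 9 of 17 were called against 45.4% of all tested genes and 55.0% of those at 10 CPM or above. Their median log2 fold change was -0.29. The integrin subunits ITGAV and ITGB8, which together form a receptor that releases latent TGF-beta, fell from 325 ± 9.47 to 219 ± 2.71 CPM and from 325 ± 10.9 to 198 ± 7.25 CPM (log2 fold changes -0.57 and -0.71). LTBP4, a latent TGF-beta binding protein, fell by 0.53 on the log2 scale. The proteoglycan gene BGN fell by 0.73. THBS1, named after its values were seen, encodes thrombospondin 1, which can release latent TGF-beta, and was the 1 that rose, from 129 ± 6.29 to 166 ± 19.7 CPM.

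Of 9 other receptors and co-receptors 6 fell, 1 rose and 2 were not called, where 23.4% of all tested genes were called lower and 22.0% higher. The median for these 9 was -0.23 in log2. ENG, the co-receptor endoglin, fell by 0.29 on the log2 scale, and CD109, a membrane-anchored TGF-beta co-receptor, fell by 0.24. ACVR1B, the type I receptor of activin, fell by 0.23. ACVR1C, a related type I receptor, had 51, 37 and 34 reads in controls and 16, 8 and 7 in sgSEPHS2 libraries, a change of -1.87 in log2 with an SE of 0.41 (edgeR, adjusted p = 7.44e-04). The 1 that rose was TGFBR3, which encodes betaglycan and was named after its values were seen, from 11.8 ± 0.665 to 14.9 ± 1.33 CPM (log2 fold change 0.33).

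Of 19 other SMADs and regulators 3 rose, 6 fell and 10 were not called, and the median log2 fold change was -0.03. Thus 9 of 19 were called, against 45.4% of all tested genes. All 19 averaged 10 CPM or above, where 24.8% of genes were called lower and 30.2% higher, 55.0% in all. TGIF1, a co-repressor of SMAD complexes, rose from 54.7 ± 0.6 to 85.6 ± 1.86 CPM (log2 fold change 0.64), while its paralog TGIF2 fell by 0.43 on the log2 scale. TGIF1 lies on chromosome 18, and the 26 tested genes within 5 Mb of it had a median log2 fold change of 0.90, with 20 called higher. NEDD4L, a ubiquitin ligase that acts on activated SMADs, rose by a log2 fold change of 0.37. SMAD6, the other inhibitory SMAD, was named after its values were seen and rose from 12.5 ± 0.877 to 17.7 ± 1.48 CPM, a change of 0.50 in log2 (edgeR, adjusted p = 2.75e-05). PMEPA1, a membrane protein that is induced by TGF-beta and holds back SMAD2 and SMAD3, fell from 83.9 ± 7.02 to 32.8 ± 1.48 CPM, a change of -1.36 in log2 (edgeR, adjusted p = 9.46e-14). NKILA, antisense to PMEPA1, was also called lower, at 4.29 and 2.12 CPM.

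Of 24 target genes beside the members 12 fell, 5 rose and 7 were not called. Among all tested genes 23.4% were called lower and 22.0% higher, and at 10 CPM or above 24.8% and 30.2%. The median for these 24 was -0.25 in log2. Genes already counted in the lists above are PMEPA1, TGIF1, THBS1, LTBP2 and FSTL3, and of these TGIF1 and THBS1 rose. The fibronectin gene FN1 fell 4.01-fold. The AP-1 gene JUNB fell by 0.95 on the log2 scale. JUNB overlaps HOOK2, which was itself called lower (21.0 and 16.5 CPM). CCN2, a matricellular protein gene that also responds to YAP and was named after its values were seen, rose from 9.39 ± 0.876 to 17.2 ± 2.44 CPM, a change of 0.87 in log2 (edgeR, adjusted p = 2.37e-07).

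**Figure D5:**
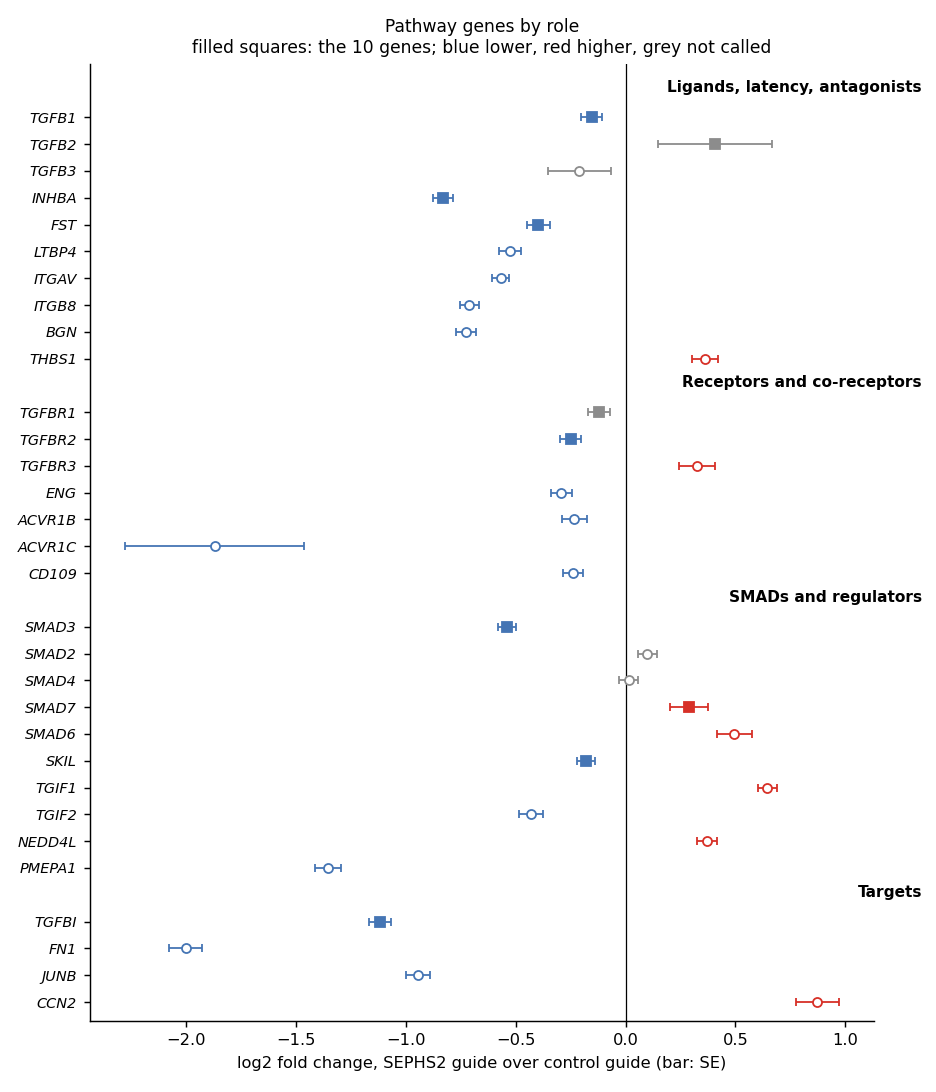
Log2 fold change (sgSEPHS2 over control, bar: SE) of the 10 genes (filled squares) and of other named pathway genes (open circles), grouped by role, with blue for lower, red for higher and grey for not called. FN1, at 4.01-fold lower, lies farthest to the left, and SMAD7, SMAD6, TGIF1, NEDD4L, TGFBR3, THBS1 and CCN2 are on the higher side.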

How the data were processed

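A single file was used: counts of reads for each gene symbol as the authors deposited them, not normalized, in 6 libraries. The submitters' processing notes name build GRCh38, featureCounts 2.0.6, HISAT2 2.2.1, SAMtools 1.21 and FastQC 0.12.1. Annotation, strand setting and handling of multi-mapping reads were not given in the sources used here. Sample titles gave the groups. The whole table was fitted in R 4.3.3 with edgeR 4.0.16 (TMM factors, default expression filter, two-sided quasi-likelihood test), and p-values were Benjamini-Hochberg adjusted over 16910 tested genes, leaving out 4721. CPM used TMM-scaled library sizes. The method was tested on simulated counts with 200 of 16910 genes changed, far fewer than were called in the data. It recovered 42% of 1.2-fold, 72% of 1.5-fold, 78% of 2-fold and 100% of 4-fold changes, with 5 false calls among 151. Small changes can thus be missed, and a gene not called may still differ. Read ratios were tested by exact permutation (scipy 1.17.1). Positions and promoters are from RefSeq (GRCh38.p14), exon lengths and overlaps from GENCODE 29.

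The 10 genes, the lists and the rule for named genes were chosen with earlier results of these data known. The rule takes SEPHS2, the 10 genes, and up to 4 other called genes per list by smallest adjusted p. The alternatives tried were DESeq2 1.42.0, limma-voom (limma 3.58.1), upper-quartile or RLE factors, all genes unfiltered, a minimum of 1 CPM in 3 libraries, the replicate number as a block, each library left out, and an adjusted p under 0.01.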

Additional observations from a re-analysis of the deposited data

How the results depend on the processing

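Under 14 alternatives each, TGFBI, INHBA, SMAD3, FST, TGFBR2 and SKIL kept their direction and their call. TGFB1 lost its call in 3 (without control replicate 1 or 2, and at an adjusted p under 0.01, where it had 0.011), SMAD7 in 1 and TGFBR1 gained one in 6. With 1 library left out, 6 to 8 members were called lower and 0 to 1 higher, the 0 without sgSEPHS2 replicate 1. In the same refits 1 to 2 of the ligand, latency and antagonist genes were called higher, the 2 without control replicate 1. The log2 fold change of SMAD4, never called, lay between -0.0055 and 0.039 with 1 library left out, turning negative without control replicate 2 (-0.0025) or sgSEPHS2 replicate 2. The differences in log2 read ratio lay between -0.51 and -0.39 for INHBA to FST, 0.21 and 0.69 for TGFB2 to TGFB1, and 0.08 and 0.19 for TGFBR1 to TGFBR2. A refit with 1 library left out also has fewer libraries, and the cause of these shifts was not tested.

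The groups share replicate numbers, but deviations of same-numbered libraries correlated at 0.01, -0.093 and -0.254, so the numbers were not taken to pair libraries. With the replicate number as a block, 8 members were called lower and 1 higher, the 8th being TGFBR1 (edgeR adjusted p = 0.04), with 3777 genes higher and 3997 lower in all. SMAD2 was called higher with the block (adjusted p = 0.0489) and without sgSEPHS2 replicate 2 (adjusted p = 0.0487). Depth limits TGFB2 (306 reads over 6 libraries) and ACVR1C. With 3 libraries per group, an exact test of a single ratio cannot go below p = 0.1.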
